A study of Mus musculus with 12 samples.

Results

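A list of 41 interferon-stimulated genes was followed in CD11c+ cells of the mouse spleen. The genes were listed by name, and a member was measured where at least 1 of its probes had a detection p-value under 0.05 on 3 or more of the 12 arrays. By that rule 37 of the 41 genes were measured, with 64 of the 26390 probes tested, which named 14326 genes in all. Ifit1, Xaf1 and Herc6 each had 1 probe, which was detected on 0 arrays, and Ifi44 is not analysed here. The measured members fell into 7 roles: 9 sensors of foreign nucleic acid, 4 transcription factors, 11 antiviral effectors, 4 genes of the ISG15 and ubiquitin enzymes, 3 PARP family genes, 5 interferon-inducible GTPases and 1 chemokine.

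Cells carrying CD11c, an integrin subunit abundant on dendritic cells, were enriched from spleen with magnetic beads, and their RNA was read on Illumina MouseWG-6 v2 bead arrays. Mice lacked apolipoprotein E (ApoE-/-, also written ApE-/- in the labels) or were wild type (Bl6). Each genotype was fed standard chow or a high-cholesterol diet, which the design text calls a high fat diet, and each of the 4 groups held 3 samples. Samples 1 to 3 were ApoE-/- on chow, 4 to 6 ApoE-/- on the high-cholesterol diet, 7 to 9 Bl6 on chow and 10 to 12 Bl6 on the high-cholesterol diet. The labels give no age, feeding time or pooling of animals, and they tie the knockout to no cell type. Whether samples of 1 group were taken from different mice is not stated, so each p-value reflects sample-to-sample spread that may be purely technical.

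Interferons are secreted proteins that warn cells of infection. Type I interferons act through IFNAR and the kinases JAK1 and TYK2 to assemble ISGF3, a complex that holds STAT2 and IRF9 and binds the interferon-stimulated response element (ISRE). Interferon gamma acts on genes that carry the gamma-activated sequence (GAS). Dendritic cells are both a source and a target of interferons, and plasmacytoid dendritic cells are the best known producers of the type I kind.

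The promoters of the list were searched for both elements, since interferon signalling is known to act through them. Of the 41 genes, 32 had a RefSeq promoter window of 300 bases, from 250 before to 50 after the transcription start, on GRCm38.p6. The ISRE core GAAANNGAAA (the half-site GAAA, any 2 bases, GAAA), searched on both strands, stood in the windows of 16 of the 32 genes (50%), compared with 3.44% of all 32851 windows and 3.99% of all 27025 genes. The palindromic GAS letters TTCNNNGAA stood in 8 of the 32 (25%), compared with 8.3% of all windows and 9.55% of all genes, and the 2 motifs overlapped in 1 member window, that of Ifitm3. The windows of 4 genes are shown, each written 5′ to 3′ on the gene's strand with the matched letters in capitals: Ifit3 (chr19:34583279-34583578, plus strand) with 2 ISRE cores, Isg15 (chr4:156200769-156201068, minus strand) with 3 overlapping cores, Stat2 (chr10:128270248-128270547, plus strand) with 1 core, and Irf1 (chr11:53769764-53770063, plus strand) with 1 GAS match. Ifit3 held the single call among the members, Stat2 and Irf1 separated the genotypes, and Isg15 had the densest run of the motif.
Ifit3: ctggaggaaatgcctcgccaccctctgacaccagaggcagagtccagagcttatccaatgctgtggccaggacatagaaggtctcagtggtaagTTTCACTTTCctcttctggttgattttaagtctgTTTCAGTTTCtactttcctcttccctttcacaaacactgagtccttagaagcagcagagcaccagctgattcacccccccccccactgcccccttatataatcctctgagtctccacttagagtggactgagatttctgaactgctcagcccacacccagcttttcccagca
Isg15: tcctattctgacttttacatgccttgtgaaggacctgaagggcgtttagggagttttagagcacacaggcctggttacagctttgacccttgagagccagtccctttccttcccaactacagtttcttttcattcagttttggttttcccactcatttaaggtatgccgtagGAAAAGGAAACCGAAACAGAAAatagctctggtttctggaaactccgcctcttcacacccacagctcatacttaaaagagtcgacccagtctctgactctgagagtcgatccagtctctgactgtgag
Stat2: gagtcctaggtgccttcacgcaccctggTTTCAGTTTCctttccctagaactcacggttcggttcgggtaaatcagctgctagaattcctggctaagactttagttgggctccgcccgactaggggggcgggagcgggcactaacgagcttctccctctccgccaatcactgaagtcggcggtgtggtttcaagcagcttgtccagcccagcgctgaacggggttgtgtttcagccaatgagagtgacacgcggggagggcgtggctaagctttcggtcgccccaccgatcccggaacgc
Irf1: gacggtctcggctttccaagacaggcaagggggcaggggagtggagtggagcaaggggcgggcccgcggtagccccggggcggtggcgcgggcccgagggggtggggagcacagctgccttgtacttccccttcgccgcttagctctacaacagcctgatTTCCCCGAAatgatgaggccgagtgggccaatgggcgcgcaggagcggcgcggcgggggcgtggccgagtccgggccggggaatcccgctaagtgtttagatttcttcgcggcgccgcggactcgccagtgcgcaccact

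A match to these letters is a description and not evidence of a bound factor. Among measured members with a window, those with ISRE letters and those without had similar diet differences in Bl6: the median log2 difference was 0.19 for the 15 with the letters and 0.21 for the 13 without. Among other genes the medians were 0.01 for the 394 with the letters and -0.01 for the 9984 without. Counts of members were less alike elsewhere. For the diet in ApoE-/-, 12 of 15 with the letters and 7 of 13 without lay above 0, with medians of 0.07 and 0.03. For the genotype averaged over diets, 2 of 15 and 6 of 13 did, with medians of -0.07 and -0.06. These differences were not tested. Oasl2, which had the largest diet difference of the list in Bl6, had no match in its window.

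Arrays had a median intensity of 102 to 120 units and detected 47.7% to 50.3% of probes, and their number limits the precision. Itgax, which encodes CD11c, was detected on all 12 arrays at a log2 signal of 8.03 to 8.73, and Cd74, the class II invariant chain, lay at 14.63 to 14.81, whereas the dendritic cell receptor gene Flt3 was detected on 5. Apoe itself lay at 5.50 to 5.93 in ApoE-/- samples and 12.18 to 13.29 in Bl6. The female-specific transcript Xist lay at 4.17 to 4.39 in ApoE-/- and 9.75 to 10.88 in Bl6, and Y-linked Eif2s3y at 9.75 to 10.44 and 4.11 to 4.41, so the genotype and the sex-linked state cannot be told apart. An array of ApoE-/- that is named chow in one deposited table is named high-cholesterol in the other, for all 6 such arrays, and the files do not settle which naming holds. Here the intensity table's names were kept, and some values that involve an ApoE-/- diet are also given with those diets exchanged. The other values of such comparisons rest on the kept names. In such a mixed preparation, a lower level of a cell type's genes cannot be told apart as fewer cells or less RNA per cell.

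The list was readily measured in all groups. Of the 37 members, 35 were detected on all 12 arrays. The exceptions were Oas3, on 10 arrays, and Parp9, on 7, with 0 of 3 in Bl6 on chow. The pooled within-group SD of log2 signal had a median of 0.235 over the members and 0.216 over all genes. Among members it was largest for Oasl1 (0.511) and Mx1 (0.416) and smallest for Irf1 (0.0889). In the heat map of all members, columns rather than groups share a colour in several places: samples 3, 5 and 9 are mostly low and samples 4, 10 and 12 mostly high.

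**Figure D1:**
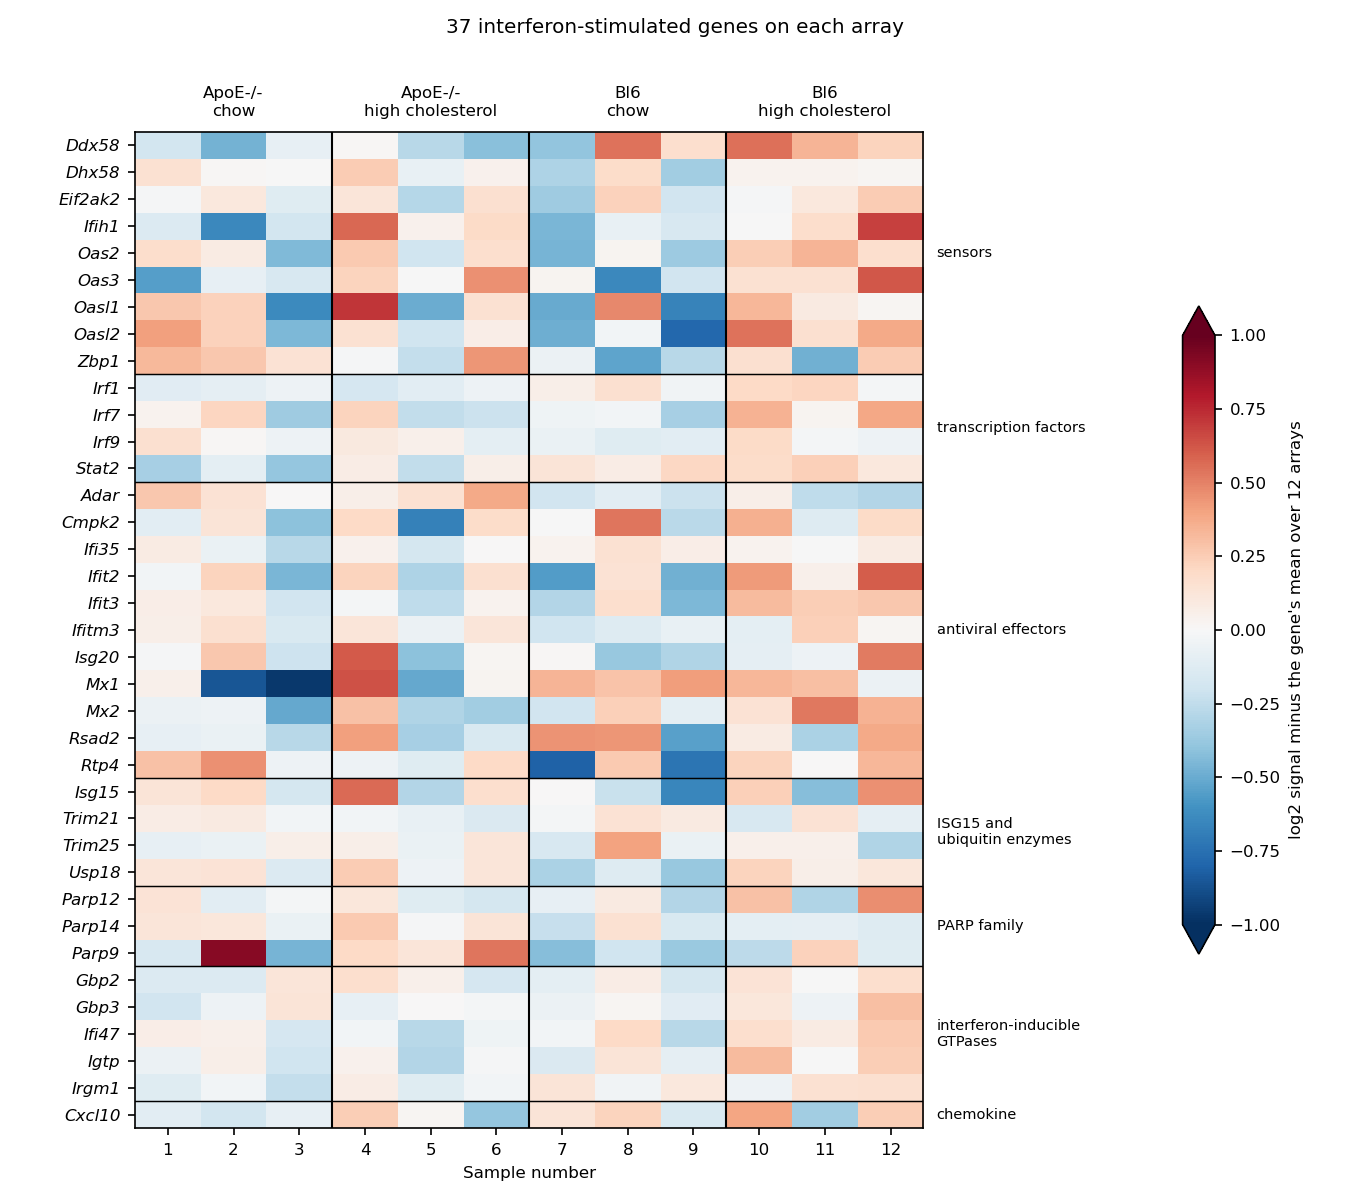
Log2 signal of each of the 37 measured interferon-stimulated genes (rows, grouped by role) on each of the 12 arrays (columns, grouped by genotype and diet), shown as the difference from the gene's mean over the 12 arrays. Red is above and blue below that mean. Samples 3 and 5 are low across most rows, and the 3 Bl6 samples on the high-cholesterol diet are mostly red.

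In Bl6 cells, most interferon-stimulated genes lay higher on the high-cholesterol diet than on chow, by small amounts that did not pass the test. The log2 difference was above 0 for 31 of 37 members, with a median of 0.22, compared with 49.1% of all genes and a median of 0.00. By limma with Benjamini-Hochberg adjustment over all probes, 0 of 64 member probes passed (0.0379% of all probes did). At an unadjusted p under 0.05 there were 13 of 64, all higher, where 5.61% of all probes were higher at that level, and 12 of 64 (18.8%) had all 3 high-cholesterol samples above all 3 chow samples, compared with 7.94% of all probes. No member probe separated the diets in the lower direction, against 8.11% of all probes, and 7 of 37 members lay above the 95th percentile of all genes. Of the 18 members with several tested probes, 6 had probes that differed in sign: Adar, Irf1, Irf9, Parp14, Trim21 and Zbp1. Members were listed as targets of the same pathway, so they cannot be taken as independent of each other.

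By their brightest probes, all 9 sensors lay above 0 in that comparison, with a median log2 difference of 0.38. Oasl2 (chr5:114896926-114912245), an oligoadenylate synthetase-like protein, had the largest difference. Its log2 signal was 9.75, 10.21 and 9.45 in Bl6 on chow and 10.78, 10.40 and 10.62 on the high-cholesterol diet. In ApoE-/- it was 10.65, 10.47 and 9.79 on chow and 10.39, 10.04 and 10.30 on the diet. The Bl6 diet groups did not overlap, while the ApoE-/- groups lay between and within them. The Bl6 difference was 0.79 ± 0.24 (SE), a 1.73-fold ratio, with an adjusted p of 0.239. The other Oasl2 probe was dimmer, and its diet groups overlapped.

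Oas3 (chr5:120753098-120777684) encodes an oligoadenylate synthetase, whose product activates RNase L to degrade RNA. Its signal in Bl6 was 5.10, 4.43 and 4.88 on chow and 5.22, 5.22 and 5.69 on the high-cholesterol diet. In ApoE-/- it was 4.52, 4.99 and 4.91 on chow and 5.29, 5.07 and 5.53 on the diet. In both genotypes, as the intensity table names the arrays, every diet sample lay above every chow sample, although the gene was near background. The differences were 0.57 ± 0.21 (adjusted p = 0.319) in Bl6 and 0.49 ± 0.21 (adjusted p = 1) in ApoE-/-, the latter -0.49 with the ApoE-/- diets exchanged. Its relative Oas2 differed by 0.52 ± 0.19 in Bl6 (adjusted p = 0.319), also without overlap.

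Ifih1 (chr2:62595618-62646255) encodes MDA5, a sensor of long double-stranded RNA. In Bl6 its signal was 5.77, 6.15 and 6.07 on chow and 6.22, 6.40 and 6.91 on the high-cholesterol diet. In ApoE-/- it was 6.09, 5.58 and 6.04 on chow and 6.80, 6.27 and 6.42 on the diet. All 6 diet samples therefore lay above all 6 chow samples, a separation found for 0.102% of all probes. The difference was 0.52 ± 0.21 in Bl6 (adjusted p = 0.373) and 0.56 ± 0.15 over both genotypes (adjusted p = 0.506), and the latter was -0.04 with the ApoE-/- diets exchanged. The other sensors lay between 0.19 and 0.38 in Bl6: Ddx58 (RIG-I), Dhx58 (LGP2, which regulates both RIG-I and MDA5), the RNA-activated kinase gene Eif2ak2 (PKR), Oasl1 and Zbp1, which binds Z-form nucleic acid.

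All 4 transcription factors lay above 0 by their brightest probes, with a median of 0.10. For Irf1 and Irf9 the probes did not all have the same sign. Irf7, the factor that amplifies type I interferon production, differed by 0.39 ± 0.18 (adjusted p = 0.439), with the Bl6 groups not overlapping. Irf9, the DNA-binding part of ISGF3, differed by 0.14 ± 0.11, Irf1 by 0.07 ± 0.11 and Stat2 by 0.04 ± 0.13.

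Of the 11 measured antiviral effectors, 8 lay above 0. Ifit3 (chr19:34583119-34588982), a member of the IFIT family that binds viral RNA in complexes, had 2 tested probes. The brighter read 10.59, 11.05 and 10.43 in Bl6 on chow and 11.20, 11.13 and 11.15 on the high-cholesterol diet, a difference of 0.47 ± 0.16 (adjusted p = 0.288). The dimmer read 6.85, 7.60 and 7.18 on chow and 7.86, 8.18 and 8.07 on the diet, a difference of 0.83 with an adjusted p of 0.149. On both probes the Bl6 diet samples lay above the chow samples. Ifit2, of the same family, differed by 0.65 ± 0.24 and Rtp4, an interferon-induced inhibitor of RNA virus replication, by 0.61 ± 0.25, both with overlapping groups and adjusted p of 0.319 and 0.374.

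The remaining effectors differed less. Mx2 differed by 0.36 ± 0.20, the exonuclease gene Isg20 by 0.35 ± 0.25 and Ifitm3, which blocks viral membrane fusion, by 0.19 ± 0.13. The nucleotide kinase gene Cmpk2 differed by 0.06, Adar, an RNA-editing deaminase, by 0.01 and Ifi35 by -0.05. Rsad2, which encodes viperin, differed by -0.07 ± 0.28 and the dynamin-like GTPase gene Mx1 by -0.16 ± 0.30.

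Usp18 (chr6:121245906-121270917), which removes ISG15 from proteins and dampens signalling at the type I receptor, was the clearest of the ISG15 and ubiquitin enzymes. Its signal in Bl6 was 10.34, 10.53 and 10.28 on chow and 10.88, 10.72 and 10.77 on the high-cholesterol diet. In ApoE-/- it was 10.78, 10.80 and 10.52 on chow and 10.91, 10.61 and 10.78 on the diet. The 3 Bl6 chow samples included the lowest of the 12, and the Bl6 diet groups did not overlap. The difference was 0.40 ± 0.13, with an adjusted p of 0.254. The ubiquitin-like modifier gene Isg15 differed by 0.38 ± 0.27, and the ubiquitin ligase genes Trim21 and Trim25 by -0.10 ± 0.11 and -0.12 ± 0.16.

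The other roles showed smaller values. Parp9, Parp12 and Parp14, of the ADP-ribosyltransferase family, differed by 0.28 ± 0.29, 0.25 ± 0.19 and -0.03 ± 0.13. The interferon-inducible GTPases Gbp2, Gbp3, Ifi47, Igtp and Irgm1, known for attack on vacuoles that hold pathogens, lay between 0.02 and 0.22, all above 0. Cxcl10, a chemokine that draws T cells, differed by 0.03 ± 0.21.

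Markers of other cells also differed between the diets in Bl6, without passing the test. Of 12 measured markers of plasmacytoid dendritic cells, 11 lay below 0, with a median log2 difference of -0.44. By limma 0 passed, with 1 higher and 6 lower at an unadjusted p under 0.05. Of all probes, 5.61% were higher and 6.34% lower at that level. The plasmacytoid markers had a mean level of 10.03 to 10.20 on chow and 9.62 to 9.87 on the high-cholesterol diet, so those groups did not overlap. Of 13 macrophage markers 11 lay above 0, with a median of 0.08. Their mean level was 11.57 to 11.80 on chow and 11.98 to 12.02 on the diet, a gap to which Vsig4 gave most, at 3.56 ± 0.70 (adjusted p = 0.106). All 7 B cell markers lay below 0, with a median of -0.47. None of these markers was undetected on all arrays, and their part in the result was not tested.

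**Figure D2:**
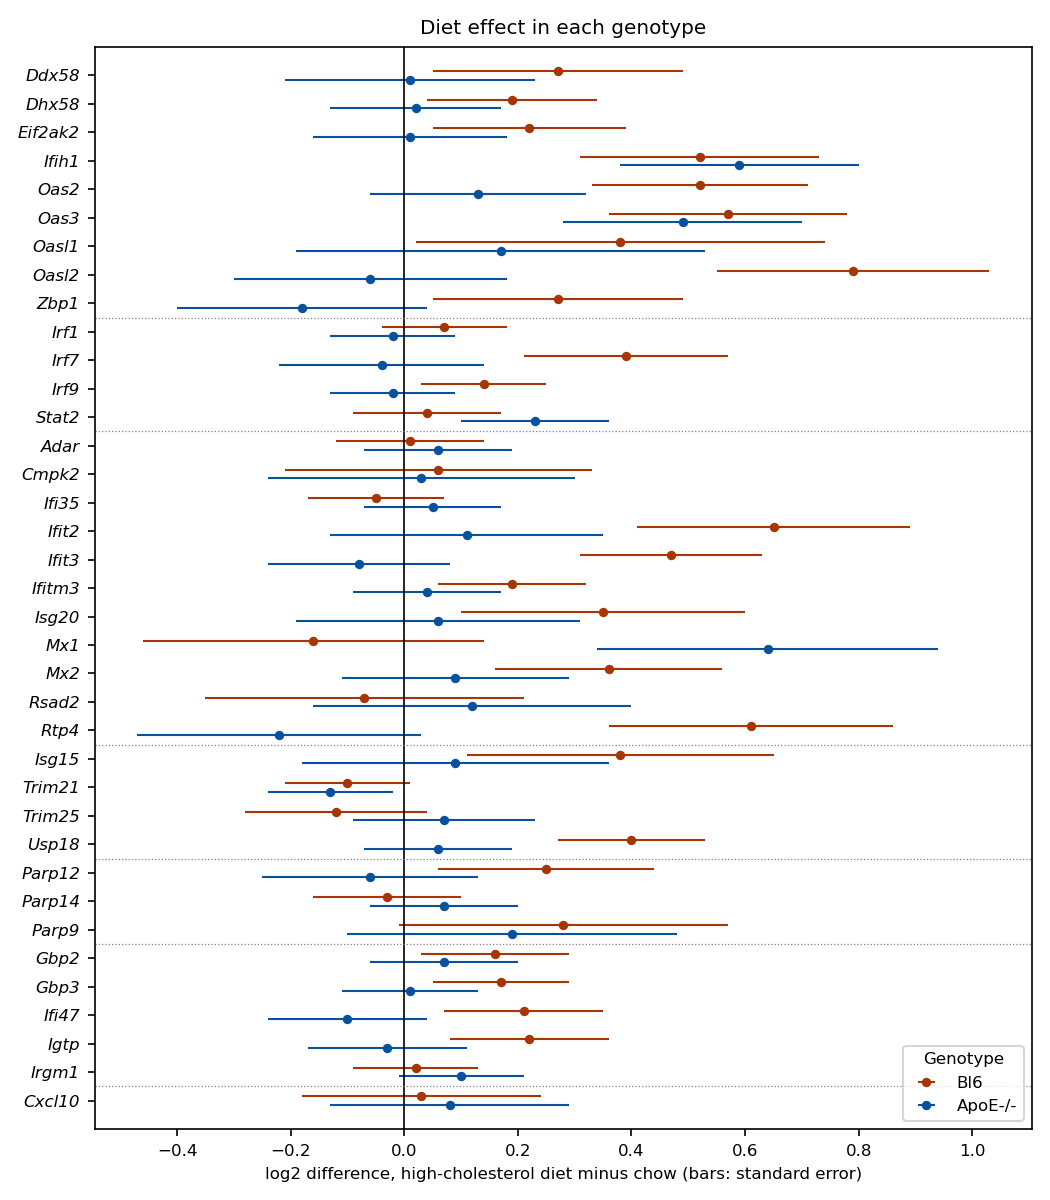
Log2 difference between the high-cholesterol diet and chow for each of the 37 members in Bl6 (orange-brown) and ApoE-/- (blue), with bars for the standard error and dotted lines between roles. In Bl6 31 points lie right of 0, led by Oasl2 at 0.79, and in ApoE-/- 26 do, most of them close to 0.

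In ApoE-/- cells the same genes differed little between the diets. Of 37 members 26 lay above 0, with a median log2 difference of 0.06, compared with 48.6% of all genes and a median of 0.00. By limma 0 of 64 member probes passed (0% of all probes did), 2 had an unadjusted p under 0.05 (3.72% of all probes) and 3 (4.69%) had every diet sample above every chow sample, compared with 3.86% of all probes. The members with the smallest p-values were Ifih1, at 0.59 ± 0.21, and Oas3, at 0.49 ± 0.21, both with an adjusted p of 1 and both below 0, at -0.59 and -0.49, with the diets exchanged. Mx1 had the largest difference, 0.64 ± 0.30, on a broad spread within both groups. Among transcription factors, Stat2 differed by 0.23 ± 0.13 and Irf1, Irf7 and Irf9 by -0.04 to -0.02.

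The count above 0 rested on single arrays. It was 12 without sample 3 and 15 without sample 4, and the median ran from -0.06 without sample 4 to 0.11 without sample 5. With the ApoE-/- diets exchanged, 11 of 37 lay above 0. The marker lists were flatter than in Bl6: the plasmacytoid list had a median difference of 0.10, with 9 of 12 above 0 and a mean level of 9.61 to 9.74 on chow and 9.67 to 9.95 on the diet.

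The diet difference was then compared between the genotypes. By limma 0 of 64 member probes passed the interaction test (0% of all probes did), and 4 had an unadjusted p under 0.05, all lower, where 3.72% of all probes were lower at that level. The interaction, the diet difference in ApoE-/- minus that in Bl6, lay below 0 for 27 of 37 members with a median of -0.17, compared with an all-gene median of 0.00. Oasl2 stood at -0.85 ± 0.34 (adjusted p = 0.593), Rtp4 at -0.83 ± 0.36 (adjusted p = 0.636) and Ifit3 at -0.55 ± 0.23 (adjusted p = 0.613). Mx1 went the other way, at 0.80 ± 0.42. With the ApoE-/- diets exchanged, 3 of 37 members lay above 0 and the median was -0.23. The larger count of members above 0 in Bl6 was thus not shown to differ between genotypes.

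Averaged over genotypes, 34 of 37 members lay higher on the high-cholesterol diet, with a median log2 difference of 0.11 compared with -0.01 over all genes, of which 47.9% were above 0. By limma 0 of 64 probes passed (0% of all probes did), and 7 had an unadjusted p under 0.05, all higher, where 3.52% of all probes were higher. Ifih1 and Oas3 (0.53 ± 0.15, adjusted p = 0.506) had the smallest p-values among members. Usp18 differed by 0.23 ± 0.09 and Oas2 by 0.33 ± 0.14. Trim21, a cytosolic antibody receptor, stood at -0.12 ± 0.08. With the ApoE-/- diets exchanged, 27 members lay above 0 and Oas3 stood at 0.04.

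**Figure D3:**
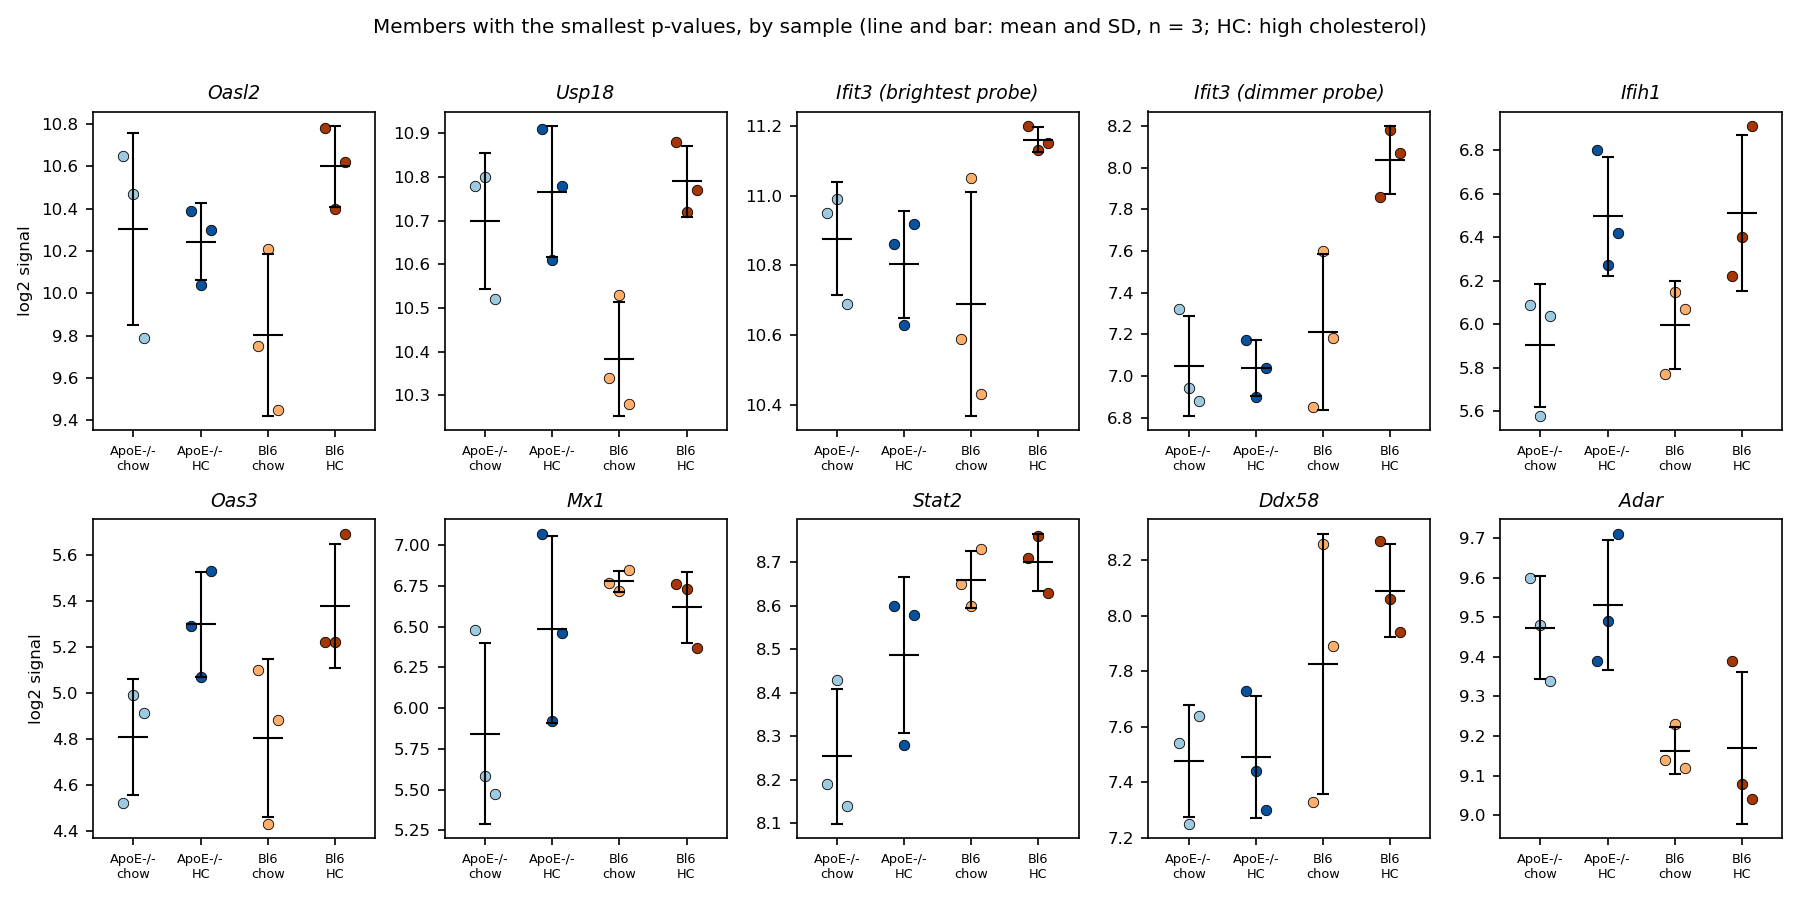
Log2 signal on each array of the 9 members with the smallest p-values, with both Ifit3 probes, by group (points: samples, line and bar: mean and SD, n = 3 per group; each panel has its own axis). The 3 Bl6 high-cholesterol samples stand above the other 9 on the dimmer Ifit3 probe, at 7.86 to 8.18, and the ApoE-/- samples lie at or below the lowest Bl6 sample for Stat2.

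On the high-cholesterol diet, interferon-stimulated genes lay lower in ApoE-/- than in Bl6 more often than higher. Of 37 members 29 lay below 0, with a median log2 difference of -0.11, compared with an all-gene median of 0.01 and 51.5% of all genes above 0. By limma 1 of 64 member probes passed (1.56%), where 0.765% of all probes did. At an unadjusted p under 0.05 there were 8 of 64 (12.5%), where 13.2% of all probes were. There were 9 member probes (14.1%) that had every ApoE-/- sample below every Bl6 sample and 2 (3.12%) that had them above, compared with 9.5% and 9.72% of all probes. The share passing at either level was thus near that of all probes.

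The probe that passed was the dimmer of the 2 for Ifit3. It read 7.17, 6.90 and 7.04 in ApoE-/- on the high-cholesterol diet and 7.86, 8.18 and 8.07 in Bl6 on that diet. On chow it read 7.32, 6.94 and 6.88 in ApoE-/- and 6.85, 7.60 and 7.18 in Bl6. The 3 Bl6 diet samples were above the other 9, which overlapped each other. The probe fell in ApoE-/- by 1.00 on the log2 scale (SE 0.19), with an adjusted p of 0.041. The adjusted p lay above 0.05 in 10 of the 12 fits that left out 1 array, all but those without sample 7 or 8, with a highest value of 0.124 and a difference of -1.09 to -0.93. Of the 8 other alternatives, 5 kept it under 0.05. It was 0.0531 with the ApoE-/- diets exchanged, 0.0535 with no filter on dim probes and 0.0801 with only the 2 groups in the model. The difference shrank to -0.68 without background correction (adjusted p = 0.00342) and to -0.65 with the deposited log2 values (adjusted p = 0.0047).

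The brighter Ifit3 probe gave a smaller difference in the same direction. It read 10.86, 10.63 and 10.92 in ApoE-/- and 11.20, 11.13 and 11.15 in Bl6 on the high-cholesterol diet, and 10.95, 10.99 and 10.69 in ApoE-/- on chow. The 3 Bl6 diet samples were again the highest of the 12. The difference was -0.36 ± 0.16, with an adjusted p of 0.371. Ifit3 has a near-identical neighbour, Ifit3b, so the signal of either gene's probes could be shared between them.

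Ddx58 (chr4:40203777-40239825), the gene of RIG-I, had the largest difference of a brightest probe on this diet. It read 7.73, 7.44 and 7.30 in ApoE-/- and 8.27, 8.06 and 7.94 in Bl6, so the groups did not overlap. On chow it read 7.54, 7.25 and 7.64 in ApoE-/- and 7.33, 8.26 and 7.89 in Bl6, which overlapped. The difference was -0.60 ± 0.22 on the high-cholesterol diet (adjusted p = 0.261) and -0.35 ± 0.22 on chow. By their brightest probes, all 4 transcription factors lay below 0 on the high-cholesterol diet, from -0.33 ± 0.18 for Irf7 to -0.02 ± 0.11 for Irf9. The probes of Irf1 did not all have the same sign. All 5 GTPases lay below 0 too, from -0.28 for Ifi47 and Igtp to -0.08 for Gbp2. Mx2 differed by -0.46 ± 0.20 (adjusted p = 0.362).

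Few members lay higher in the knockout on this diet. Adar (chr3:89714469-89753455) read 9.39, 9.49 and 9.71 in ApoE-/- and 9.39, 9.08 and 9.04 in Bl6 on its brightest probe, a difference of 0.36 ± 0.13 (adjusted p = 0.275). Its 5 probes did not all have the same sign. Parp14 differed by 0.23 ± 0.13 without overlap on its brightest probe, and its dimmer probe had the other sign. Parp9, detected on 7 arrays, differed by 0.33 ± 0.29. The count above 0 was 8 with all arrays, 5 without sample 4 and 17 without sample 5, and 9 with the ApoE-/- diets exchanged.

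On chow the members lay on both sides of 0 in ApoE-/- against Bl6. Of 37 members 23 lay above 0, with a median of 0.10, compared with 51.3% of all genes and a median of 0.01. The median was 0.00 without sample 9. By limma 0 of 64 member probes passed (0.254% of all probes did), and 6 (9.38%) had an unadjusted p under 0.05, where 10.5% of all probes did. On 3 member probes every ApoE-/- sample lay above every Bl6 sample and on 4 below, compared with 7.86% and 8.28% of all probes. On chow all 12 plasmacytoid markers lay below 0 in ApoE-/-, with a median of -0.39. Klk1 fell by 1.01 (SE 0.17, adjusted p = 0.0415), and the list's mean level of 9.61 to 9.74 in ApoE-/- did not overlap the 10.03 to 10.20 in Bl6. Their part in the members' values was not tested.

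Stat2 and Mx1 had the smallest p-values on chow. Stat2 (chr10:128270498-128292853), the subunit that marks ISGF3, read 8.19, 8.43 and 8.14 in ApoE-/- on chow and 8.65, 8.60 and 8.73 in Bl6 on chow. On the high-cholesterol diet it read 8.60, 8.28 and 8.58 in ApoE-/- and 8.71, 8.76 and 8.63 in Bl6. The chow groups did not overlap, and all 6 ApoE-/- samples lay at or below 8.60, the lowest Bl6 sample. The chow difference was -0.41 ± 0.13 (adjusted p = 0.258), and -0.17 with the ApoE-/- diets exchanged.

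Mx1 (chr16:97447035-97462906), a gene truncated in most inbred laboratory strains, read 6.48, 5.58 and 5.47 in ApoE-/- on chow and 6.77, 6.72 and 6.85 in Bl6 on chow. On the high-cholesterol diet it read 7.07, 5.92 and 6.46 in ApoE-/- and 6.76, 6.73 and 6.37 in Bl6. Both ApoE-/- groups were spread far wider than the Bl6 chow group, with an SD of 0.56 and 0.58 compared with 0.06. The chow difference was -0.94 ± 0.30 (adjusted p = 0.274), and -0.30 with the ApoE-/- diets exchanged. Members that lay higher in ApoE-/- on chow included Rtp4 at 0.66 ± 0.25, Zbp1 at 0.53 ± 0.22, Oasl2 at 0.50 ± 0.24 and Usp18 at 0.32 ± 0.13, with adjusted p from 0.381 to 0.508.

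Averaged over diets, a comparison that does not depend on how the ApoE-/- arrays were named, 15 of 37 members lay above 0 with a median of -0.04, compared with 51.6% of all genes. By limma 0 of 64 member probes passed (1.6% of all probes did), and 11 (17.2%) had an unadjusted p under 0.05, where 15.8% of all probes did. Adar differed by 0.34 ± 0.10 (adjusted p = 0.109), and its probes again differed in sign. Stat2 differed by -0.31 ± 0.09 (adjusted p = 0.11) and Ddx58 by -0.47 ± 0.15 (adjusted p = 0.164).

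Irf1, a factor induced mainly by interferon gamma, was the other member whose genotypes separated on every array. Its brightest probe read 12.93, 12.95 and 12.99 in ApoE-/- on chow and 12.87, 12.94 and 12.99 on the high-cholesterol diet. In Bl6 it read 13.10, 13.20 and 13.01 on chow and 13.24, 13.26 and 13.02 on the diet. Every ApoE-/- sample lay below every Bl6 sample, by a small margin, and the difference was -0.19 ± 0.08 (adjusted p = 0.254). Its 4 other probes differed by -0.34, -0.32, -0.17 and -0.02. Over all probes 1.25% had every ApoE-/- sample below every Bl6 sample, and 2 of the 64 member probes did. The members on chromosome 7, which holds Apoe, were Isg20, Trim21, Ifitm3 and Irf7, at 59.2 to 122 Mb from it.

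Markers of several other cells moved with the genotype, most often those of neutrophils. By limma 8 of 12 measured neutrophil markers passed, all higher in ApoE-/- averaged over diets. The list had a median log2 difference of 1.03 and a mean level of 7.89 to 8.60 in ApoE-/- and 7.12 to 7.49 in Bl6. Of 9 T cell markers 3 passed, all higher (Cd6, Thy1 and Cd8b1), and the list had a mean level of 9.72 to 9.98 compared with 9.36 to 9.51. Of 13 macrophage markers C1qa and Cd68 passed, both lower, and the list had a mean level of 11.61 to 11.81 in ApoE-/- and 11.57 to 12.02 in Bl6. In the other lists, again averaged over diets, the monocyte marker F13a1 rose by 0.94 (SE 0.17, adjusted p = 0.0234) and the NK cell marker Il2rb by 0.56 (SE 0.10, adjusted p = 0.0251), while the dendritic cell marker Cadm1 fell by 0.51 (SE 0.11, adjusted p = 0.0434) and the plasmacytoid marker Klk1 by 0.56 (SE 0.12, adjusted p = 0.047). Each of these lists also held markers of the opposite sign. They included Treml4 at -0.35 ± 0.08 among monocyte markers and Prf1 at -0.33 ± 0.14 among NK cell markers. Zbtb46 differed by 0.28 ± 0.14 among dendritic cell markers and Siglech by 0.08 ± 0.13 among plasmacytoid markers. None of the markers in these lists was undetected on all arrays, and their part in the members' values was not tested.

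**Figure D4:**
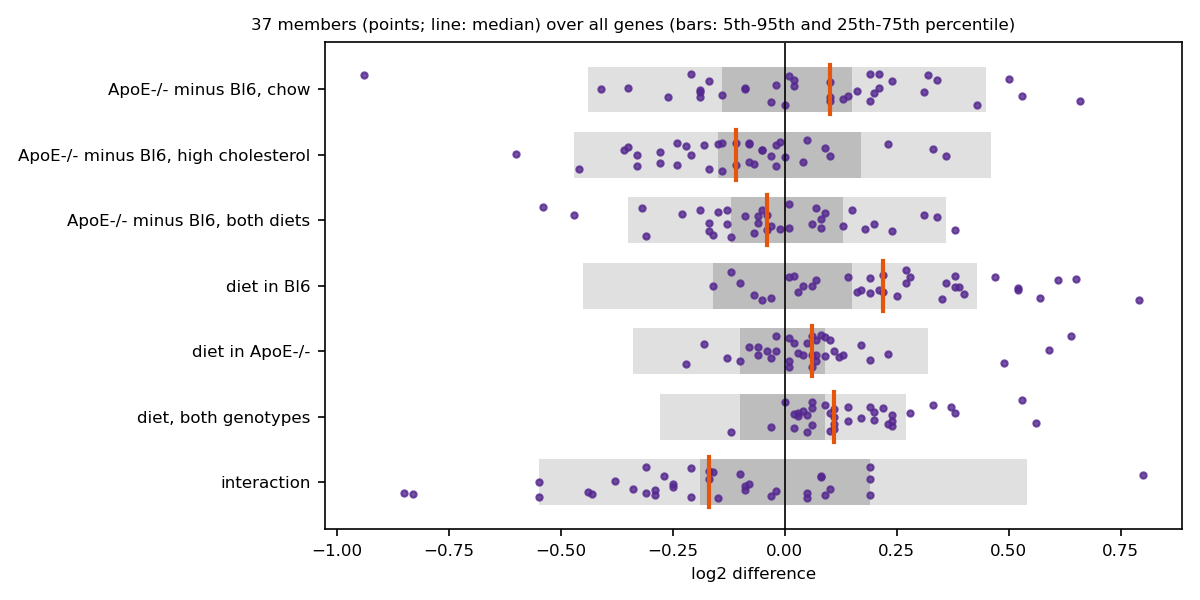
Log2 difference of each of the 37 members (points) in the 7 comparisons, with the members' median (orange line) over grey bars for the 25th to 75th and the 5th to 95th percentile of all genes. The members' median is 0.22 for the diet in Bl6, 0.06 for the diet in ApoE-/- and -0.11 for the genotype on the high-cholesterol diet.

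The upstream and parallel genes of the pathway were read in the same fit. Of 18 interferon genes 8 were measured, and by limma 0 passed in any of the 7 comparisons. Averaged over diets, 2 were higher and 2 lower in ApoE-/- at an unadjusted p under 0.05, and Ifng had the smallest, at 0.46 ± 0.11 (adjusted p = 0.0656). Of all probes, 7.91% were higher and 7.88% lower at that level averaged over diets. In Bl6 the diet difference of Ifna12 was 0.41 ± 0.14 (adjusted p = 0.292) within a list whose median was -0.14. The interferon genes were dim: their mean level was 5.27 to 5.82, compared with 7.32 to 7.34 over all genes. The least detected of them passed on 3 arrays. Another 9 listed interferon genes, Ifnb1 among them, were detected on too few arrays to be tested. Of 13 receptor, kinase and feedback genes 11 were measured and 0 passed, again with 2 higher and 2 lower at an unadjusted p under 0.05 averaged over diets. Socs3, a feedback inhibitor of JAK signalling, differed by 0.35 ± 0.10 in ApoE-/- averaged over diets (adjusted p = 0.1). Of 14 genes that induce interferon 13 were measured and 0 passed, with 2 higher and 1 lower at an unadjusted p under 0.05 averaged over diets. Mavs, the adaptor of RIG-I and MDA5, differed by 0.27 ± 0.10 there (adjusted p = 0.202).

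A further 53 interferon-stimulated genes outside the list, 44 of them measured, held 2 that passed. Of all probes, 0.765% passed for the genotype on the high-cholesterol diet and 1.6% averaged over diets. Ifit3b is the near-identical neighbour of Ifit3, so its call and that of the dimmer Ifit3 probe may share signal. Ifit3b read 7.98, 8.10 and 8.25 in Bl6 on the high-cholesterol diet and 7.33, 6.83 and 7.37 in ApoE-/- on that diet. On chow it read 6.93, 7.31 and 6.97 in Bl6 and 7.16, 7.45 and 7.30 in ApoE-/-. The 3 Bl6 diet samples stood above the other 9, as they did on the dimmer Ifit3 probe, while the order of the other 3 groups differed between the genes. It fell in ApoE-/- on the high-cholesterol diet by 0.93 on the log2 scale (SE 0.17, adjusted p = 0.0347), and in Bl6 the diet difference was 1.04 ± 0.17 (adjusted p = 0.0775).

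Ube2l6, the conjugating enzyme for ISG15, also passed. It read 7.85, 7.92 and 7.91 in ApoE-/- on chow and 8.20, 7.76 and 7.92 on the high-cholesterol diet. In Bl6 it read 8.23, 8.19 and 8.13 on chow and 8.60, 8.66 and 8.52 on the diet. The Bl6 diet samples were the highest of the 12, and a single ApoE-/- sample reached the Bl6 chow range. It fell in ApoE-/- by 0.46 averaged over diets (SE 0.09, adjusted p = 0.0251) and by 0.63 on the high-cholesterol diet (SE 0.12, adjusted p = 0.0413). For the diet in Bl6, 34 of the 44 lay above 0 with a median of 0.19, compared with 26 and 0.02 in ApoE-/-, and 0 passed in either. At an unadjusted p under 0.05, 12 were higher and 1 lower in Bl6 and 1 higher in ApoE-/-. Of all probes, 5.61% were higher and 6.34% lower at that level in Bl6, and 1.77% higher in ApoE-/-.

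In 3 of the 4 groups the members tended to be high or low on the same array. In ApoE-/- on chow 28 of 37 members (75.7%) were lowest on sample 3, where 35.9% of all genes were. In ApoE-/- on the high-cholesterol diet 27 (73%) were lowest on sample 5, where 32.2% of all genes were, and 27 were highest on sample 4. In Bl6 on chow 27 were highest on sample 8, where 35.2% of all genes were. In Bl6 on the high-cholesterol diet the pattern was weaker: at most 18 (48.6%) were lowest on 1 array, sample 11, and at most 16 (43.2%) highest, on sample 12.

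The mean log2 signal of the 37 members shows this directly. It was 9.16, 9.18 and 8.94 in ApoE-/- on chow and 9.33, 8.97 and 9.19 on the high-cholesterol diet. In Bl6 it was 8.99, 9.22 and 8.92 on chow and 9.31, 9.19 and 9.34 on the diet. The lowest array of the Bl6 diet group, at 9.19, lay below the highest of the Bl6 chow group, at 9.22, and the pooled within-group SD was 0.142. The 44 other interferon-stimulated genes had a mean of 9.04 on sample 3 and 9.02 on samples 5 and 9, their lowest arrays together with sample 7 at 9.03. Neutrophil markers were also lowest within their groups on samples 3 (8.00), 5 (7.89) and 9 (7.15). In Bl6 on the high-cholesterol diet they were highest, at 7.35, on sample 11, the members' lowest array there. Within the ApoE-/- groups the plasmacytoid, B cell and monocyte lists were also lowest on samples 3 and 5. The macrophage and the dendritic cell lists were highest on those 2 samples. The part of such cells in the array pattern was not tested.

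**Figure D5:**
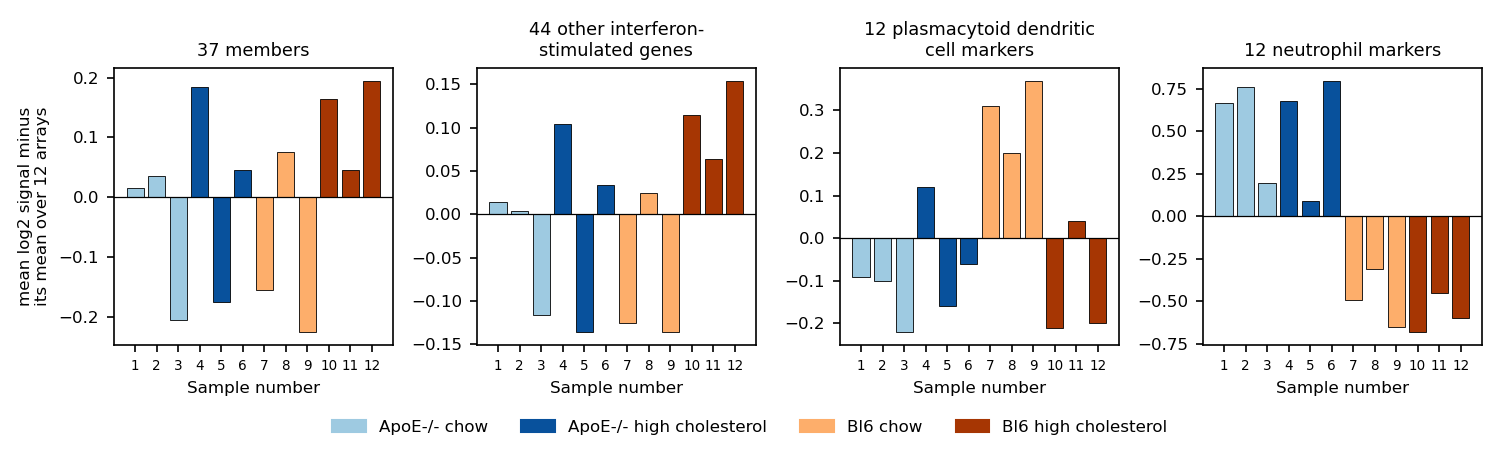
Mean log2 signal on each array of the 37 members, of 44 other interferon-stimulated genes, of 12 plasmacytoid dendritic cell markers and of 12 neutrophil markers, each as the difference from its mean over the 12 arrays (bars from 0, coloured by group; each panel has its own axis). Members and the other interferon-stimulated genes dip on samples 3, 5, 7 and 9, and neutrophil markers stand above 0 on all 6 ApoE-/- arrays.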

How the data were processed

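RNA of 12 samples was measured, 100 ng of total RNA per sample on its own array, per the labels. One deposited table holds a linear intensity per probe, neither background-subtracted nor scaled between arrays as its values show, with the detection p-value of each intensity, per the file headers. The second deposited table is in log2 values. A column there was 1 intensity column on the log2 scale plus a constant of at most 0.443 (largest SD of the difference 3.7e-05, column medians 6.82 to 7.12); 6 columns, all Bl6, matched the array of the same name, and the 6 of ApoE-/- matched arrays of the other diet. Its scaling constants are not given in the sources used here.

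Intensities were background-corrected with normexp (nec in limma 3.58.1, R 4.3.3, offset 16, background inferred from the detection p-values), then quantile-normalised and log2-transformed. Tests covered the 26390 of 46237 probes whose detection p was under 0.05 on 3 or more arrays. All 12 arrays entered 1 linear model of the 4 group means (8 residual and 3.42 prior degrees of freedom). The 7 contrasts were tested two-sided with Benjamini-Hochberg adjustment across the tested probes, and an adjusted p under 0.05 counted as passed. ± is the model's SE unless SD is stated. A gene is represented by its brightest tested probe. The model fit and the calling of probes were tested on simulated log2 values for the diet in Bl6. The steps before the fit were not.

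Gene symbols were read from the platform annotation (35784 probes with 1 symbol, 0 with several, 10453 with none), updated through the GRCm38.p6 RefSeq table by gene number (28620), transcript (2637) or symbol (2128); 2399 were unmatched. Gene positions are from that table. Where in its transcript a probe lies was not used here.

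The members and gene lists were chosen with earlier results of these data known. Sample values are printed for members with a passed probe and for the 2 members with the smallest p in each contrast; those of Irf1, Ifit3b and Ube2l6 were added after their values were seen. Alternatives were the background correction, the normalisation, the deposited log2 values, the exchanged ApoE-/- diets, the filter, the samples in the model, the moderation, the mean of a gene's probes and each array left out.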

Additional observations from a re-analysis of the deposited data

How the results depend on the processing

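Counts of passed members changed with the processing, as did directions that involve an ApoE-/- diet. For the genotype on the high-cholesterol diet, passed member probes numbered 2 without background correction or with trend and robust moderation, 3 with the deposited log2 values, and 0 with the ApoE-/- diets exchanged, with no filter or with only the compared groups (0 to 1 without 1 array). For the genotype averaged over diets, 2 genes and 4 probes passed without background correction, 1 and 3 with the deposited values, 4 and 7 with trend and robust moderation, and 1 probe on detection by all 12 arrays (0 to 1 genes and 0 to 2 probes without 1 array, the highest without sample 7). On chow 1 gene (Usp18, 0.45) passed with the deposited values. For the diet in Bl6, 1 probe passed without background correction or with trend and robust moderation, and 1 gene (Oasl2, 0.77, adjusted p = 0.0487) and 2 probes with the deposited values.

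In ApoE-/-, members above 0 on the diet numbered 8 with the deposited values and 11 with the diets exchanged (12 to 29 without 1 array), and for the interaction 1 and 3. For the genotype on the high-cholesterol diet they numbered 5 to 17 without 1 array. Ifih1 reversed in ApoE-/- to -0.32 and -0.59 under those settings and Oas3 to -0.20 and -0.49; averaged over genotypes, Ifih1 reversed to -0.04 under both and Oas3 to -0.02 with the deposited values. These reversals follow from the exchanged names. Members above 0 for the diet in Bl6 stayed at 28 to 33 without 1 array and 29 to 32 under the other alternatives.

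Passed probes over the whole array ranged, across all alternatives, from 26 to 277 (67 as reported) for the genotype on chow, 22 to 676 (202) on the high-cholesterol diet and 142 to 1653 (423) averaged, and from 2 to 266 (10) for the diet in Bl6; for the diet in ApoE-/-, averaged, and the interaction they reached 1, 9 and 13 (0). The self-test called 77 of 100 simulated probes changed by a log2 of 1 in the Bl6 diet comparison over 26390 probes. It simulated no smaller change and drew independent noise, so it does not measure how often smaller differences are missed with 3 arrays a group. No paired analysis was possible because the running numbers of the samples are shared by no groups.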
